A study of Mus musculus with 6 samples.

Results

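The genes described here encode the cardiac myosin heavy chains (*Myh6*, *Myh7* and *Myh7b*), the myosin light chains used by heart and by fast skeletal muscle (*Myl1*, *Myl2*, *Myl3*, *Myl4* and *Myl7*), and the myosin-binding proteins *Mybpc3* and *Mybphl*. They were taken by symbol from a table of read counts that lists 13809 genes, and all 10 were present. The counts came from hearts of wild-type (WT) and *Pkm1*-knockout (KO) mouse embryos at embryonic day 18.5, with 3 libraries per genotype. PKM1 is a splice form of pyruvate kinase, the enzyme of the last step of glycolysis. The KO allele is a small CRISPR/Cas9 deletion in the *Pkm* gene that brings in an early stop codon, so every cell of the embryo carried it. The allele was made in zygotes of BDF1 mice, a cross of C57BL/6J and DBA/2, and the strain of the sequenced embryos is not stated. The study obtained KO embryos from intercrossed heterozygotes, and KO pups die soon after birth. The tissue is labelled as heart, and the study's text calls it ventricular. The study reports that PKM2, the other splice form, was not raised to compensate. Its discussion adds that PKM2 was lowered, maybe secondarily, so the phenotype may not come from PKM1 loss alone. The comparison asks how the isoform makeup of the thick filament differs in hearts with this allele.

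Myosin is the motor of the sarcomere. Its heavy chains hold the ATPase head and the tail that packs into the thick filament, and each head carries a regulatory and an essential light chain. The α heavy chain (*Myh6*) is the faster ATPase and the β heavy chain (*Myh7*) the slower one. In mice β-myosin dominates the ventricle before birth and α-myosin takes over around birth, a switch that depends on thyroid hormone. Of the regulatory light chains, *Myl2* is ventricular and *Myl7* atrial. Of the essential light chains, *Myl3* is ventricular and slow skeletal, *Myl4* is atrial and is also made in fetal ventricle and fetal skeletal muscle, and *Myl1* is fast skeletal. *Mybpc3* encodes cardiac myosin-binding protein C, which tunes how heads leave the thick filament, and *Mybphl* encodes a related protein of atria and conduction cells.

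*Myh6* and *Myh7* lie head to tail on the minus strand of chromosome 14 (GRCm38, the mm10 build), at chr14:54941921-54966927 and chr14:54970684-54994626. *Myh7b* lies on chromosome 2 at chr2:155611212-155634307, on the plus strand. Each of the 3 genes carries a microRNA in an intron, on its own strand and outside its exons: *Mir208a* in intron 29 of *Myh6*, *Mir208b* in intron 31 of *Myh7* and *Mir499* in intron 19 of *Myh7b*. Their mature sequences are shown because they tie the heavy chain genes together as a family, with bases 2 to 8 (the seed, which pairs with targets) in capitals. The sequences are from RefSeq (GRCm38.p6).
mmu-miR-208a-3p: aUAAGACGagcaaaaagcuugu
mmu-miR-208b-3p: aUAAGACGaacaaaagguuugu
mmu-miR-499-5p: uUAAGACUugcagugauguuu
The miR-208a and miR-208b forms share the whole seed, and the miR-499 seed ends in a different base.

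The 250 bases before the RefSeq start of *Myl7* (chr11:5898783-5899032, minus strand) and of *Myh6* (chr14:54966608-54966857, minus strand) are shown because these are an atrial isoform that was higher and an adult isoform that was lower in KO hearts. Capitals mark CCAAT, the box bound by NFY, and CATTCC, the core bound by TEAD factors, read on both strands.
*Myl7*: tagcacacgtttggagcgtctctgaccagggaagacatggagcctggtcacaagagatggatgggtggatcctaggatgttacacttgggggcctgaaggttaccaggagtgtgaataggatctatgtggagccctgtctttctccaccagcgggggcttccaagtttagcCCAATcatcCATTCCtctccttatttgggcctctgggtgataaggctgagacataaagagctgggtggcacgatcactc
*Myh6*: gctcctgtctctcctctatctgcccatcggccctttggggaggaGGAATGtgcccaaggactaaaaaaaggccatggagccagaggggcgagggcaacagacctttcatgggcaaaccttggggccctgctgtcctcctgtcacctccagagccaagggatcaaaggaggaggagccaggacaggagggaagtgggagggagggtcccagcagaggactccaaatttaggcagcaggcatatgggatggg
In *Myl7* the CCAAT box begins 79 bases and CATTCC 70 bases before the start. In *Myh6* CATTCC is on the opposite strand and its match begins 206 bases before the start, and the other box is absent from this window. The *Myh6* window lies inside the gene span given above, which is from GENCODE and begins further upstream than the RefSeq start. CCAAT was present in 5 of the 12 RefSeq promoters of the 10 genes (those of *Myl1*, *Myl3*, *Myl7* and *Myh7*), against 33.8% of 32851 promoters of the same length. CATTCC was present in 5 of the 12 (those of *Myl1*, *Myl3*, *Myl7*, *Myh6* and *Myh7*), against 12.6% of all promoters. AGGTCA, the half-site of nuclear receptors, was present in 2 of the 12 (those of *Myh7b* and *Myl2*), against 14.0%. These are matches of letters, and binding was not measured in these libraries.

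Within each genotype the libraries are called a, b and c, since the column names give only the genotype. They held 15567624 to 19875546 counts each. Levels are given as CPM, counts scaled to library size with TMM factors, and 3 counts are 0.153 to 0.197 CPM, a limit that covers counting error only. *Pkm*, the targeted gene, went from 1318 ± 41.1 in WT to 542 ± 10.1 CPM in KO libraries (SD, n = 3). Every WT library held reads of *Kdm5d*, *Eif2s3y*, *Uty* and *Ddx3y*, which are Y-linked, whereas the KO libraries had 0 counts for all 4. *Xist*, the RNA of the inactive X, went from 5.26 ± 0.500 to 2285 ± 47.6 CPM (SD, n = 3). All differences between WT and KO below are therefore also differences in these signals of sex, and genotype and sex cannot be told apart.

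Of the 10 genes, 3 were lower in KO hearts (*Myh6*, *Myl2* and *Myl3*), 6 were higher (*Myh7*, *Myh7b*, *Myl1*, *Myl4*, *Myl7* and *Mybpc3*) and *Mybphl* did not pass the test. A gene was called when its p from the quasi-likelihood test of edgeR, adjusted by Benjamini and Hochberg's method over 13804 genes, was under 0.05. At this threshold 30.3% of all genes were called, 15.7% lower and 14.6% higher. Most of these genes are abundant, and abundant genes were called more often: among the 1894 genes averaging 100 CPM or more, 45.9% were called, 34.1% lower and 11.8% higher. All 7 of the 10 genes above that level were called. The WT and KO libraries did not overlap for 8 of the 10 genes, against 42.4% of all genes, and for 6 of the 7 abundant ones, against 57.8% of genes at that level. The sizes were unequal: *Myl4* and *Myl7* rose most, *Myh6* fell most, and the other called genes moved less. In bulk RNA, fewer cells of a type and less RNA per cell cannot be told apart.

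**Figure D1:**
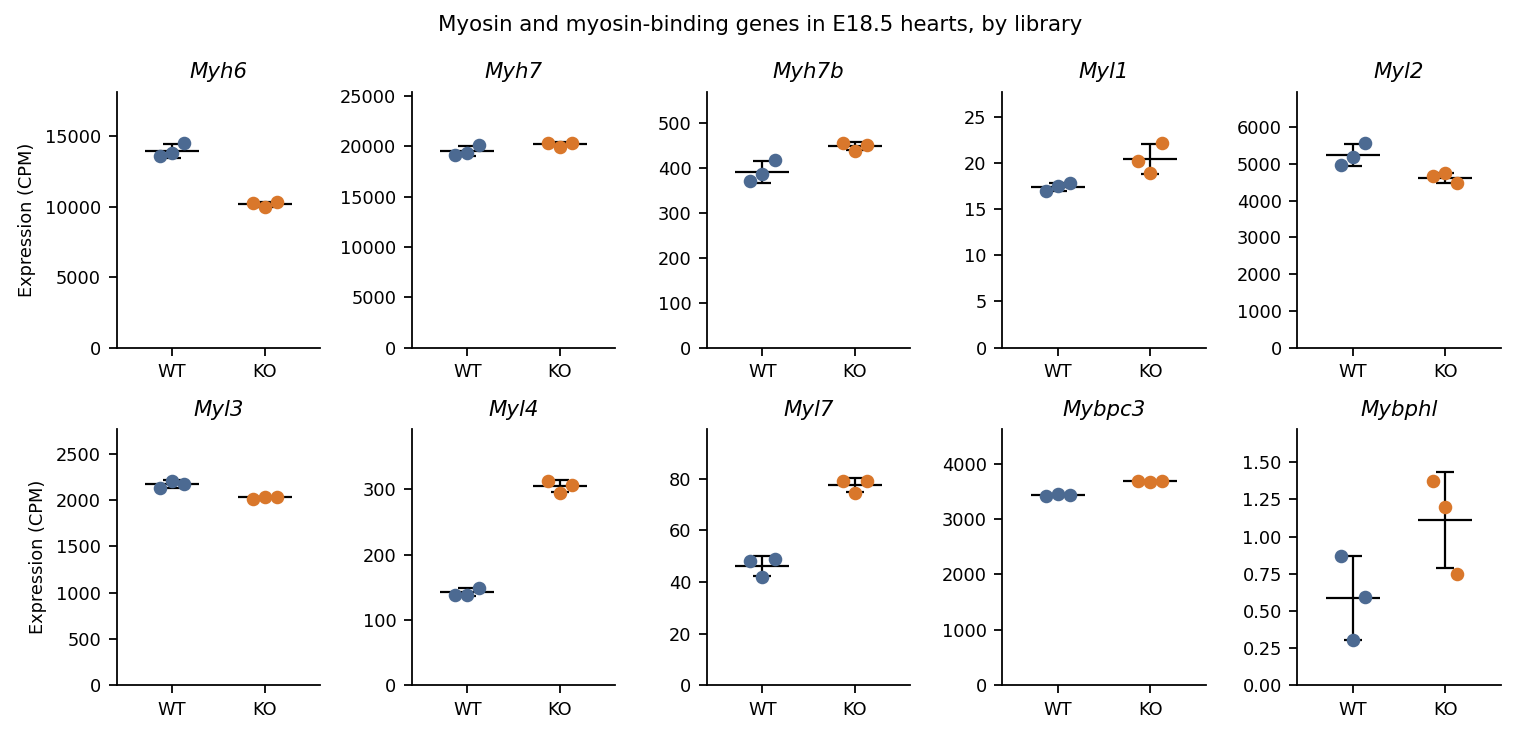
Expression of the 10 genes in each library (dots; WT blue, KO orange) in TMM-scaled CPM, with the mean and SD of 3 libraries in black, each panel on its own axis from 0. *Myl4* sat at 138 to 149 CPM in WT and 294 to 313 CPM in KO libraries, and *Myh6* at 13620 to 14534 CPM and 9993 to 10316 CPM.

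**Figure D2:**
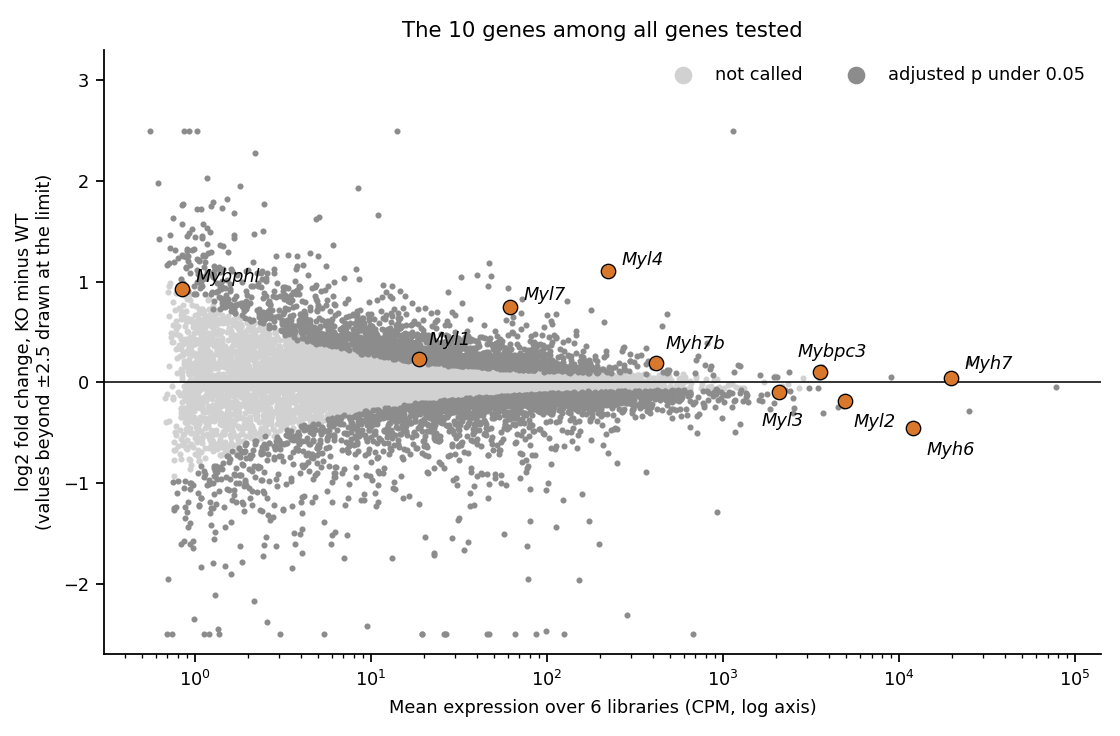
Log2 fold change (KO minus WT) against mean CPM over 6 libraries (log axis) for the 13804 genes tested, with called genes in dark grey and the 10 genes in orange. *Myl4*, at 1.10, ranks 2 among the 1894 genes of at least 100 CPM, while *Myh7*, *Myl3* and *Mybpc3* lie near 0.

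*Myh6* was at 13620, 13784 and 14534 CPM in the WT libraries and at 10265, 9993 and 10316 CPM in the KO libraries. Every KO library was thus below every WT library, by a wide margin against the spread within each genotype. *Myh6* fell from 13979 ± 487 to 10191 ± 173 CPM (SD, n = 3), with a log2 fold change of -0.46 (SE 0.0198, edgeR adjusted p = 3.85e-16). It held its direction and its call under all 15 other settings, from -0.48 to -0.30.

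*Myh7* was at 19185, 19320 and 20104 CPM in WT and at 20345, 19971 and 20304 CPM in KO libraries. KO b lay below WT c, so the genotypes overlapped. The log2 fold change of *Myh7* was 0.05 (SE 0.0166, edgeR adjusted p = 0.0268). This call did not hold with DESeq2 (adjusted p = 0.251) or with edgeR's exact test (adjusted p = 0.204), nor with WT a, WT b, KO a or KO c left out. *Myh6* and *Myh7* are close copies. Of the 50-base words of *Myh6* exons, 20.2% also occur in *Myh7*, and 15.6% of those of *Myh7* occur in *Myh6*. With 150-base words these shares were lower, at 4.78% and 3.64%. Counts of *Myh6* and *Myh7* may therefore exchange reads, and how many was not measured.

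*Myh7b*, an ancient slow-type heavy chain gene whose RNA in mammalian heart mostly skips an exon and yields no full-length protein, was at 369, 386 and 417 CPM in WT and at 455, 438 and 450 CPM in KO libraries. It rose with no overlap, by 0.20 on the log2 scale (SE 0.0346, edgeR adjusted p = 8.82e-05). The counts do not separate its splice forms.

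Under TMM the fall of *Myh6* was not matched by the change of *Myh7*. Mean *Myh6* fell by 3788 CPM, whereas mean *Myh7* was 670 CPM higher in KO, and the sum of both went from 33516 ± 983 to 30398 ± 375 CPM (SD, n = 3), a change of -9.30%. The sum was 32805 to 34637 CPM in WT and 29965 to 30619 CPM in KO libraries, without overlap. Per kilobase of exon, which allows levels to be set beside each other, *Myh6* went from 2078 ± 72.4 to 1515 ± 25.8 CPM per kb and *Myh7* from 2267 ± 57.6 to 2345 ± 23.8 CPM per kb (SD, n = 3). β-myosin RNA was therefore the more abundant of the pair in both genotypes on this scale, and the gap was wider in KO hearts.

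The ratio of *Myh6* to *Myh7*, per kb and within a library, was 0.909, 0.914 and 0.926 in WT and 0.646, 0.641 and 0.651 in KO libraries. Such a ratio does not depend on how libraries are scaled. It was lower by 0.50 on the log2 scale in KO hearts. The exact two-sided permutation test gave p = 0.1, the smallest value that 3 libraries against 3 allow (adjusted p = 0.113 over 9 ratios). *Myh6* made up 47.2% ± 0.211 of the sum of *Myh6*, *Myh7* and *Myh7b* in WT and 38.6% ± 0.177 in KO (SD, n = 3). With the length of the longest coding transcript in place of the union of exons, these shares were 41.7% and 33.5%. The ratio of *Myh7b* to *Myh6* plus *Myh7* was 0.0135 in WT and 0.0175 in KO on average, with no overlap (exact permutation p = 0.1).

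Among the regulatory light chains, *Myl2* (chr5:122100951-122113472, plus strand) was at 4964, 5200 and 5576 CPM in WT and at 4665, 4745 and 4481 CPM in KO libraries. All KO libraries were below all WT libraries, and WT c was the highest. The log2 fold change was -0.18 (SE 0.0279, edgeR adjusted p = 1.60e-05). *Myl7* (chr11:5896637-5898782, minus strand) was at 48.2, 41.9 and 48.9 CPM in WT and at 79.4, 74.5 and 79.2 CPM in KO libraries. *Myl7* rose by 0.75 on the log2 scale (SE 0.0555, edgeR adjusted p = 3.52e-11), again without overlap.

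The ratio of *Myl7* to *Myl2* per kb was 0.0321, 0.0266 and 0.0290 in WT and 0.0562, 0.0519 and 0.0584 in KO libraries. It was higher by 0.93 on the log2 scale (exact permutation p = 0.1, the smallest possible). *Myl7* made up 2.84% ± 0.260 of the sum of *Myl2* and *Myl7* in WT and 5.26% ± 0.300 in KO hearts (SD, n = 3). The share itself depends on the length given to *Myl2*, and was 1.32% and 2.47% with the longest coding transcripts. *Myl2* was thus the main form of this pair in every library on either scale. The regulatory light chains of smooth muscle and nonmuscle cells are not in this sum.

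Among the essential light chains, *Myl4* (chr11:104550663-104595753, plus strand) was at 139, 138 and 149 CPM in WT and at 313, 294 and 307 CPM in KO libraries. The lowest KO library was far above the highest WT library. *Myl4* rose from 142 ± 6.03 to 305 ± 9.58 CPM (SD, n = 3), by 1.10 on the log2 scale (SE 0.0363, edgeR adjusted p = 5.29e-19). It ranked 2 among the 1894 genes with at least 100 CPM by its rise, after *Xist*.

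*Myl3* (chr9:110741861-110769798, plus strand) was at 2127, 2210 and 2174 CPM in WT and at 2015, 2030 and 2034 CPM in KO libraries. The log2 fold change was -0.10 (SE 0.0216, edgeR adjusted p = 9.36e-04), a small shift without overlap. *Myl1* (chr1:66924295-66945404, minus strand) was at 16.9, 17.5 and 17.8 CPM in WT and at 20.2, 18.9 and 22.2 CPM in KO libraries. Its log2 fold change was 0.24 (SE 0.0793, edgeR adjusted p = 0.0249), and this call was lost with DESeq2 (adjusted p = 0.0820) and without WT a, WT b, KO a or KO c.

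The ratio of *Myl4* to *Myl3* per kb was 0.0287, 0.0276 and 0.0302 in WT and 0.0685, 0.0639 and 0.0665 in KO libraries. It was higher by 1.20 on the log2 scale, the widest shift of the 9 ratios (exact permutation p = 0.1). *Myl4* made up 2.78% ± 0.122 of the sum of *Myl1*, *Myl3* and *Myl4* in WT and 6.16% ± 0.200 in KO hearts (SD, n = 3). With the longest coding transcripts, which give *Myl4* 943 bases against 4637 for all its exons, these shares were 6.07% and 12.9%. The choice of length also sets the order of the 2 atrial light chains in WT: *Myl4* was at 30.6 CPM per kb of all exons and at 151 CPM per kb of the longest transcript, and *Myl7* at 78.5 CPM per kb on both. The share of *Myl1* in the same sum was below 1% in every library, at 0.763% ± 0.0130 in WT and 0.924% ± 0.0702 in KO (SD, n = 3).

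**Figure D3:**
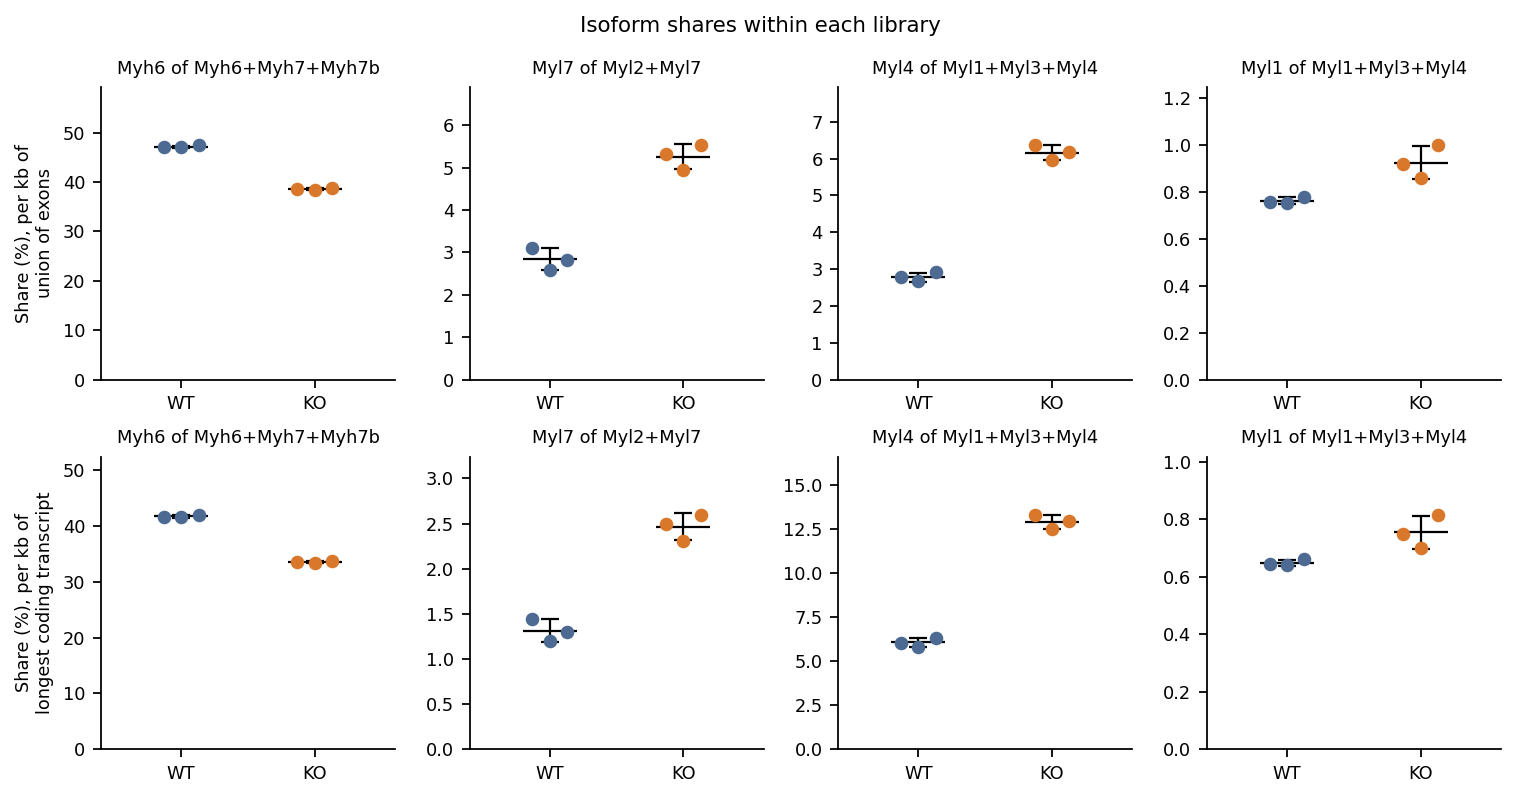
Share of *Myh6* in the sum of *Myh6*, *Myh7* and *Myh7b*, of *Myl7* in the sum of *Myl2* and *Myl7*, and of *Myl4* and *Myl1* in the sum of *Myl1*, *Myl3* and *Myl4*, in percent of CPM per kb, for each library (dots) with mean and SD of 3 libraries. The upper row uses the union of exons and the lower row the longest coding transcript: the *Myl4* share was 2.78% and 6.16% in WT and KO in the upper row and 6.07% and 12.9% in the lower.

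Under TMM the combined ventricular light chains *Myl2* and *Myl3* went from 7417 ± 329 to 6657 ± 132 CPM (SD, n = 3), a change of -10.2%. This was near the -9.30% of the summed *Myh6* and *Myh7* on the same scale. The ratio of the 5 light chains to *Myh6* plus *Myh7* per kb was 0.872, 0.899 and 0.900 in WT and 0.924, 0.953 and 0.901 in KO libraries. KO c lay just above WT c, and the exact permutation p was 0.1. The ratio of *Myl2* plus *Myl7* to *Myl1*, *Myl3* and *Myl4* was 2.44, 2.45 and 2.67 in WT and 2.38, 2.40 and 2.27 in KO libraries, a difference of -0.10 on the log2 scale (exact permutation p = 0.1). With the longest coding transcripts this difference was -0.18. On the log2 scale, *Myl7* to *Myl2* (0.93) and *Myl4* to *Myl3* (1.20) differed by more than this ratio between classes. Those 2 ratios set a rare isoform against an abundant one, so the sizes are not directly comparable, and their difference was not tested.

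*Mybpc3* (chr2:91118144-91136516, plus strand) was at 3409, 3459 and 3434 CPM in WT and at 3680, 3676 and 3696 CPM in KO libraries. It rose by 0.10 on the log2 scale (SE 0.0190, edgeR adjusted p = 1.80e-04), a small change against a very small spread. Set against *Myh6* plus *Myh7* per kb, it went from a mean ratio of 0.190 to 0.229, higher by 0.27 on the log2 scale (exact permutation p = 0.1). *Mybphl* (chr3:108364911-108380057, plus strand) had 15, 6 and 9 reads in the WT and 26, 19 and 14 reads in the KO libraries, and the genotypes overlapped once scaled. Its log2 fold change was 0.93 (SE 0.381, edgeR adjusted p = 0.0662), and a difference was not detectable at this depth with that test.

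Scaling matters for the smaller changes. When libraries were scaled by 10 general cardiomyocyte genes in place of TMM, the median of all genes moved to 0.16 on the log2 scale, and the members moved with it. *Myh6* was still lower (-0.30) and *Myl4* (1.26) and *Myl7* (0.91) still higher. *Myh7* was at 0.21 (edgeR adjusted p = 2.17e-07), against 0.05 under TMM. *Myl2* lost its call (-0.02, edgeR adjusted p = 0.587), and *Myl3* turned to 0.06 (edgeR adjusted p = 0.154). Of those 10 cardiomyocyte genes, 6 were lower and 2 higher in KO under TMM, with a median of -0.21, among them *Ryr2* (calcium release channel, -0.31), *Actn2* (Z-disc α-actinin, -0.25) and *Tcap* (telethonin, -0.50), whereas *Ldb3* (Z-disc cypher) was at 0.17. The fall of *Myl2* and *Myl3* was therefore no larger than the median of this list. That of *Myh6* (-0.46) was larger than the median but smaller than that of *Tcap*. These differences were not tested.

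**Figure D4:**
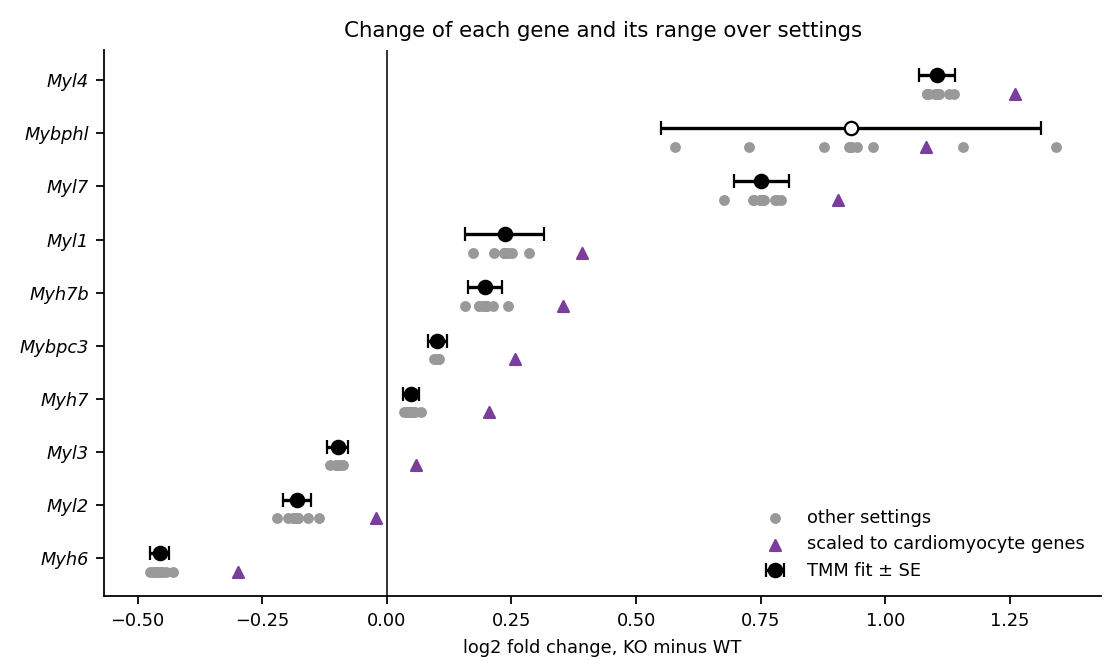
Log2 fold change (KO minus WT) of each of the 10 genes with its SE (black; filled when the adjusted p was under 0.05), the values under 14 other settings (grey; *Mybphl* has no value where each library had to reach 10 counts) and the value with libraries scaled to 10 cardiomyocyte genes (triangle). *Myh6* stayed below 0 and *Myl4*, *Myl7*, *Myh7b*, *Myh7*, *Myl1*, *Mybphl* and *Mybpc3* above 0 throughout, while the triangle of *Myl3* is at 0.06.

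Of 3 further transcripts that lie within or against the heavy chain genes, 1 was higher in KO and 2 did not pass the test. They were chosen with their values known, and their difference from the host genes was not tested. *Mhrt*, a long noncoding RNA transcribed against *Myh7*, was at 22.2, 22.3 and 26.4 CPM in WT and at 31.4, 29.9 and 32.5 CPM in KO libraries. It rose by 0.41 on the log2 scale (SE 0.0721, edgeR adjusted p = 8.10e-05) without overlap. Exons of *Mhrt* share 484 bases with exons of *Myh7*, and those of the antisense genes *Gm31251* and *Gm29015*, not analysed here, share 523 and 142. The strand setting of the counting is not given in the sources used here, so reads of *Myh7* and these genes cannot be told apart in the shared bases. *Mir208a*, counted over 83 bases within the *Myh6* intron, was at 6.43, 7.20 and 10.6 CPM in WT and at 7.31, 7.58 and 6.76 CPM in KO libraries. Its log2 fold change was -0.15 (SE 0.144, edgeR adjusted p = 0.479), and without WT c it was 0.08. *Mir208b* was at 7.06 ± 0.604 and 6.41 ± 0.993 CPM (SD, n = 3; log2 fold change -0.15, SE 0.133, edgeR adjusted p = 0.412). Total RNA libraries of this kind read precursor and intron RNA at these loci and not the mature microRNAs. *Mir499* was not analysed here.

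Of 6 other myosin heavy chain genes with a test, 5 were lower and 1 was higher in KO. Their median log2 fold change was -0.29, against 0.0017 over all genes. Counts in this and the other gene lists stand beside 15.7% lower and 14.6% higher over all genes tested. Among genes of at least 100 CPM these shares were 34.1% and 11.8%. No list was tested as a set. *Myh11*, the smooth muscle heavy chain, fell from 25.4 ± 1.08 to 18.3 ± 0.244 CPM (SD, n = 3; log2 fold change -0.47, edgeR adjusted p = 1.43e-05). The nonmuscle heavy chains *Myh9* (-0.11) and *Myh10* (-0.10) fell little, and both turned to 0.05 with the cardiomyocyte scaling. The call of *Myh10* was also lost without KO a (-0.10). The developmental skeletal heavy chains were rare and moved in opposite directions. *Myh8*, the perinatal form, had 21, 40 and 33 reads in WT and 76, 65 and 63 reads in KO libraries (log2 fold change 1.08, SE 0.213, edgeR adjusted p = 3.20e-04). *Myh3*, the embryonic form, named after its values were seen, had 20, 38 and 27 reads in WT and 17, 6 and 20 reads in KO libraries (log2 fold change -1.01, SE 0.326, edgeR adjusted p = 0.0195), a call lost with DESeq2 and without WT b or KO b.

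Of 6 other light chain genes, 1 was lower, 1 was higher and 4 did not pass (median -0.15). *Myl9*, a smooth muscle and nonmuscle regulatory light chain, was at 316, 329 and 325 CPM in WT and at 417, 409 and 404 CPM in KO libraries. It rose by 0.34 on the log2 scale (edgeR adjusted p = 8.81e-10), although *Myh11* fell. *Myl12a*, a nonmuscle regulatory light chain, fell by 0.16 on the log2 scale (edgeR adjusted p = 5.16e-04), a call lost with the cardiomyocyte scaling. Of 2 other myosin-binding protein genes, *Mybph* was higher, with 6, 13 and 6 reads in WT and 25, 28 and 32 reads in KO libraries (log2 fold change 1.72, SE 0.338, edgeR adjusted p = 3.12e-04).

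Phosphorylation of the regulatory light chain raises the force of cardiac myosin, and is set by light chain kinases against myosin phosphatase. Of 9 genes of this system, 5 were lower and 1 higher (median -0.12). The lower genes included *Rock2* (-0.27, edgeR adjusted p = 2.87e-07), a kinase that restrains the phosphatase, and the phosphatase targeting subunits *Ppp1r12a* (-0.21), *Ppp1r12b* (-0.18) and *Ppp1r12c* (-0.29). The kinases *Mylk3* and *Mylk4*, named after their values were seen, were at -0.12 (edgeR adjusted p = 0.00170) and 0.27 (edgeR adjusted p = 0.0205), and *Mylk3* turned to 0.03 with the cardiomyocyte scaling. The call of *Mylk4* was lost with DESeq2 (adjusted p = 0.0696) and without WT a, KO a or KO c. With the cardiomyocyte scaling *Ppp1r12a* was at -0.06, *Ppp1r12b* at -0.03 and *Ppp1r12c* at -0.13, none of them called. Of 15 genes for thick filament folding, anchoring and turnover, 7 were lower and 2 higher (median -0.06). *Myom1*, the M-band protein that links thick filaments, fell by 0.18, *Fhod3*, a sarcomeric formin, by 0.18 and *Hspb8*, a small heat shock protein, by 0.27 on the log2 scale. With the cardiomyocyte scaling these 3 genes lost their calls and were at -0.02, -0.02 and -0.11. *Obsl1*, an M-band relative of obscurin, rose by 0.22.

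Of 24 genes that govern which isoforms a cardiomyocyte makes, 8 were lower, 2 were higher and 14 did not pass (median -0.07). *Hey2*, a ventricular repressor of atrial genes, was at 88.2, 86.1 and 79.9 CPM in WT and at 106, 109 and 105 CPM in KO libraries, a rise of 0.33 on the log2 scale (edgeR adjusted p = 1.60e-06). *Slc16a10*, a transporter of thyroid hormone and aromatic amino acids, rose by 0.43. *Sox6*, a repressor of slow and fetal muscle genes, fell by 0.30, and *Tbx20*, a cardiac T-box factor, fell by 0.14 under TMM and was at 0.01 with the cardiomyocyte scaling. The thyroid hormone receptors, which drive *Myh6* and repress *Myh7*, were chosen with their values known. *Thra* was at 114 ± 9.25 and 110 ± 3.09 CPM (SD, n = 3; edgeR adjusted p = 0.478) and *Thrb* at 1.90 ± 0.577 and 2.24 ± 0.518 CPM (SD, n = 3; edgeR adjusted p = 0.435).

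**Figure D5:**
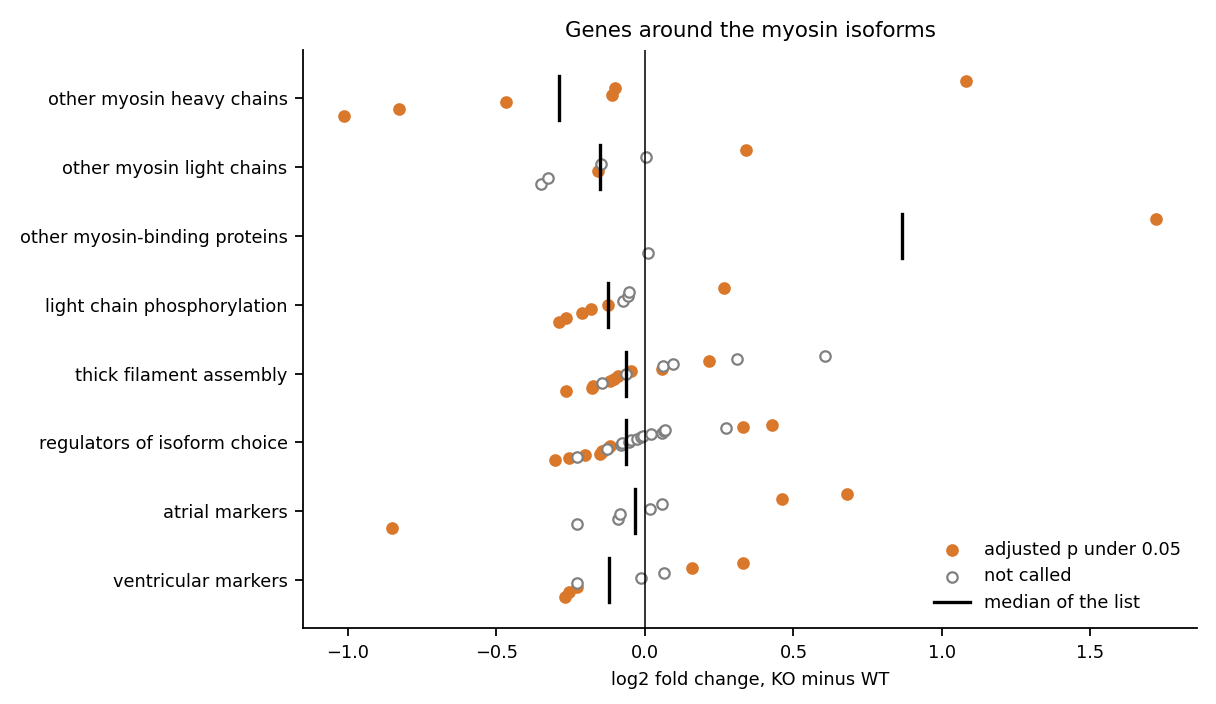
Log2 fold change (KO minus WT) of every tested gene of 8 lists related to myosin isoforms and to chamber identity, with genes of adjusted p under 0.05 in orange and the median of each list as a bar. In the lists of atrial and ventricular markers, called genes stand on both sides of 0, with medians of -0.03 and -0.12.

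Since *Myl4* and *Myl7* are atrial light chain genes, atrial and ventricular markers were set beside them. Neither marker list holds a myosin heavy chain, and *Myh6* was lower, at -0.46. Of 10 atrial markers, 8 were in the table, of which 2 were higher, 1 was lower and 5 did not pass. Their summed level was 495 to 511 CPM in WT and 707 to 727 CPM in KO libraries. *Nppa*, the natriuretic peptide made by atria and by fetal trabeculae, accounted for most of this: it was at 373, 377 and 367 CPM in WT and at 587, 598 and 605 CPM in KO libraries (log2 fold change 0.68, edgeR adjusted p = 6.97e-17). Without *Nppa*, the other 7 summed to 128 to 138 CPM in WT and 120 to 124 CPM in KO libraries. Of these 7, 1 was higher, 1 was lower and 5 did not pass. *Dkk3* was at 0.46 and *Kcna5*, an atrial potassium channel, at -0.85. *Kcna5* alone fell from 33.8 ± 2.45 to 18.7 ± 0.371 CPM (SD, n = 3), so the lower sum does not show that the rest fell. *Bmp10*, a ligand of atria and fetal trabeculae, was at 20.7 ± 1.30 and 20.9 ± 1.66 CPM (SD, n = 3), and *Nr2f2*, the atrial identity factor, at 27.0 to 29.1 CPM in WT and 27.7 to 29.8 CPM in KO libraries, with edgeR adjusted p of 0.904 and 0.536. With the cardiomyocyte scaling *Nr2f2* was higher, at 0.21 (edgeR adjusted p = 0.0192). *Sln* and *Fgf12* were not analysed here. The share of atrial tissue in the samples was not measured, and its part in the result was not tested.

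Of 8 ventricular markers, 3 were lower and 2 were higher. Their sum was 2991 to 3218 CPM in WT and 2860 to 2953 CPM in KO libraries, mostly from *Pln*. *Pln*, the brake on the calcium pump, fell from 2021 ± 133 to 1679 ± 46.5 CPM (SD, n = 3). The lower sum therefore does not show that the rest fell. *Pln* was at -0.27, *Irx3* at -0.25, *Kcne1* at -0.23, *Gja1* at 0.16 and *Hey2* at 0.33 on the log2 scale. *Irx4*, the ventricular repressor of atrial myosin genes, was at 0.06 (edgeR adjusted p = 0.405). With the cardiomyocyte scaling *Irx3* (-0.10) and *Kcne1* (-0.07) lost their calls and *Irx4* was higher, at 0.22 (edgeR adjusted p = 0.00302). All 6 libraries thus held ventricular and atrial markers, with *Myl2* far above *Myl7* per kb. Of 14 skeletal muscle markers, 6 were in the table, and these summed to 43.0 to 47.4 CPM in WT and 37.6 to 40.0 CPM in KO libraries, mostly from *Neb*. *Neb* was at 37.3 ± 1.32 in WT and 30.7 ± 1.17 CPM in KO (SD, n = 3), and lost its call with the cardiomyocyte scaling (-0.12). Of the 6, *Neb*, *Tnni2* and *Myh3* were lower, *Myh8* was higher and 2 did not pass. The call of *Tnni2* was lost without WT b or KO b. The source of the *Myl1* reads was not tested.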

How the data were processed

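Total RNA of E18.5 hearts was depleted of ribosomal RNA and sequenced in paired ends by the authors, who named cutadapt 1.18, HISAT2, StringTie and mm10 in their processing notes. The authors deposited raw read counts per gene symbol, 1 column per library, without normalization. The counting program, its strand setting and its filter on low genes are not given in the sources used here. The same table holds the authors' own log fold changes, mean log CPM, p-values and false discovery rates, which were not used. p-values here rest on 3 libraries per genotype. The quasi-likelihood fit of edgeR also draws the spread of each gene toward that of other genes.

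Counts were scaled with TMM, kept by filterByExpr (13804 of 13809 genes) and tested with edgeR 4.0.16 in R 4.3.3 (glmQLFit, glmQLFTest, genotype as the only term, Benjamini-Hochberg over all genes tested). The procedure was tested on simulated data. DESeq2 1.42.0 and limma 3.58.1 were alternatives. Library totals were 17460339, 19875546 and 15597756 counts in WT and 18577404, 15567624 and 18318394 in KO. The ribosomal gene *Rn45s* made up 2.21% to 2.48% of each WT library and 2.70% to 2.79% of each KO library. Ratios and shares used counts per kb of exon (GENCODE, GRCm38), and ratios were compared by two-sided exact permutation tests in scipy 1.17.1.

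The genes, lists and tests were chosen with earlier results of these data known. Named were all 10 genes, *Pkm*, the sex-linked check, at most 4 called genes a list by smallest adjusted p with genes that bear on the tissue label, and the 3 genes nearest to *Myl4* and to *Myh6* by Pearson correlation. Symbols were matched to GENCODE (13299), RefSeq (69) or RefSeq synonyms (422), and 19 did not match.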

Additional observations from a re-analysis of the deposited data

How the results depend on the processing

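*Myh6*, *Myh7b*, *Myl4*, *Myl7* and *Mybpc3* held direction and call under 15 settings: RLE factors, scaling by 10 cardiomyocyte genes, TMM without *Rn45s*, DESeq2, edgeR's exact test, limma's voom, no filter, at least 10 counts in every library, X and Y genes left out, and each library left out in turn. Over these, *Myh7b* ranged from 0.16 to 0.35, *Myl4* from 1.08 to 1.26, *Myl7* from 0.68 to 0.91 and *Mybpc3* from 0.10 to 0.26 on the log2 scale. *Myh7* was 0.05 with DESeq2 and with the exact test (0.0483 and 0.0487, neither called) and 0.03 to 0.07 (0.0345 to 0.0683) with a library left out. It was 0.05 with voom (0.0518, called) and 0.21 with the cardiomyocyte scaling (0.206, called). *Myl1* was 0.23 with DESeq2 (not called) and 0.17 to 0.28 (0.174 to 0.285) with a library left out. *Mybphl* was 0.93 with the exact test (adjusted p = 0.0469) and 0.58 to 1.34 with a library left out, called without WT a (adjusted p = 0.0248) and without KO c (adjusted p = 0.0417). It has no value with at least 10 counts in every library.

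Scaling by the cardiomyocyte genes moved most. It gave 750 lower and 5633 higher genes against 2168 and 2011, and 1 of the 10 genes lower and 7 higher. The shift follows from its construction, since that list had a median of -0.21 under TMM. *Myl2* was at -0.02 (-0.0222), *Myl3* at 0.06 (0.0579) and *Mybphl* at 1.08 (adjusted p = 0.0218). Among the genes named, those that changed sign were *Mir208a* (0.0099), *Mir208b* (0.0010), *Myh9* (0.045), *Myh10* (0.055), *Mylk3* (0.033), *Tbx20* (0.012), *Pecam1* (0.015), *Tie1* (0.035), *Dcn* (0.032) and *Thra* (0.11). In the lists, 3 other heavy chains were lower, 0 other light chains lower and 2 higher, 1 phosphorylation gene lower, 0 thick filament genes lower and 7 higher, and 1 regulator lower and 5 higher. DESeq2 gave 1639 lower and 1362 higher genes, and 4 of the 10 genes higher, without *Myh7* and *Myl1*. With a library left out, 4 to 6 of the 10 genes were higher and 3 were lower, *Mir208a* ranged from -0.28 to 0.076 (the highest without WT c), *Bmp10* from -0.043 to 0.077 (below 0 without WT b or KO a) and *Thra* from -0.099 to 0.012 (the highest without WT c). The causes were not tested.

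Shares move with the length used. With the longest coding transcript, WT and KO shares were 41.7% and 33.5% for *Myh6*, 1.32% and 2.47% for *Myl7*, 6.07% and 12.9% for *Myl4*, and 0.648% and 0.754% for *Myl1*. Without length correction they were 41.2% and 33.0%, 0.877% and 1.65%, 6.10% and 12.96%, and 0.747% and 0.869%. No ratio changed direction under either length or with a library left out.

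No paired analysis was possible because no column name holds a replicate number. Summing the closest libraries as 1 was not run, since no pair agreed within sampling noise. Depth limits *Mybphl*, *Mybph*, *Myh3*, *Myh8* and the microRNA loci.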

Other observations

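By Pearson correlation of log2 CPM over the 6 libraries, the genes most like *Myl4* among 9485 candidates of at least 10 CPM were *Jmjd6*, *Ndrg1* and *Adam19* (each r = 0.999), with log2 fold changes of 0.30, 0.53 and 0.27. Those most like *Myh6* were *Zfp36*, *Sri* and *Hspb7* (r = 0.999, 0.999 and 0.998), with log2 fold changes of -1.58, -0.24 and -0.35. *Zfp36* encodes an RNA-binding protein that shortens the life of mRNAs, *Sri* encodes sorcin, a calcium-binding partner of the ryanodine receptor, and *Hspb7* encodes a small heat shock protein of the sarcomere. The 6 libraries fall into 2 genotypes, so any gene that separates them cleanly reaches a high r.

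Markers of ventricular layers and of other cells were measured in the same libraries. Of 7 trabecular markers, 2 were lower and 1 higher, with *Nppa* at 0.68 and *Nppb*, the other ventricular natriuretic peptide, at -0.80 (318 ± 7.86 to 183 ± 1.16 CPM; SD, n = 3). Of 5 compact layer markers, *Tbx20* was lower and *Hey2* higher. Of 6 smooth muscle markers, 3 were lower (*Myh11*, *Smtn* and *Des*) and *Cnn1* was higher. Endothelial markers were lower in 3 of 5 genes (*Pecam1*, *Cdh5* and *Tie1*) and fibroblast markers in 2 of 5 (*Postn* and *Dcn*). The call of *Dcn* was lost with DESeq2 and without WT a, WT b, KO b or KO c, and that of *Tie1* with DESeq2 and without WT b, KO a or KO b. With the cardiomyocyte scaling *Smtn*, *Des*, *Pecam1*, *Cdh5*, *Tie1* and *Dcn* were not called. Of 2 erythroid markers with a test, *Alas2* was at 0.30 (edgeR adjusted p = 0.00257).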
